A study of Mus musculus with 6 samples.

Results

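The homeobox transcription factors Lhx1, Gsc, Otx2, Hesx1, Hhex, Six2, Six3 and Dmbx1 are described here across 3 sorted cell populations. They were chosen by name, as 8 of the 24054 genes listed in each RSEM gene table. All came from a mouse embryonic stem cell (ESC) line, DKI, that carries a Foxa2-Venus fusion on 1 allele and a Sox17-Cherry fusion on both. d0 cells were undifferentiated ESCs negative for Foxa2-Venus and Sox17-Cherry. d3F cells were Venus-positive and Cherry-negative cells sorted at day 3 of differentiation, and d5FS cells were positive for both reporters at day 5. Both differentiated populations had been grown on gelatine with 1 ng/ml Wnt3a and 10 ng/ml Activin A. Each population was represented by 2 replicates, named by the study as independent, which makes 6 samples. The model has limits: it is a single ESC line, the reporters that define the gates are Foxa2 and Sox17 themselves, and no Foxa2-negative cells of day 3 or day 5 were analysed here.

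A homeobox encodes the homeodomain, a fold of 3 helices that places the third helix in the major groove of DNA. In the gastrulating mouse embryo, several of these factors are active in the node, the anterior primitive streak and the anterior visceral endoderm, the tissues that pattern the head. Lhx1, a LIM homeodomain protein that works with Ldb cofactors, Otx2, a factor of the orthodenticle family, and Gsc, the goosecoid repressor first known from the Spemann organizer, are the classical organizer members. Hesx1 and Hhex are repressors of the anterior endoderm and the structures it borders. Six3 and Six2 belong to the sine oculis family, and Dmbx1 is a paired-like factor of the brain.

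Expected counts summed to between 16457729 and 22768686 per sample, and 14539 genes were tested after a filter on low counts. Of the 8 factors, 7 passed that filter and Six3 did not. The labelled cell types were described by definitive endoderm markers. Among these, Foxa2 and Sox17 are also the genes whose reporters define the gates, so that they are not an independent check. All 6 of the list (Foxa2, Sox17, Gata4, Gata6, Cxcr4 and Cer1) rose from d0 to d3F, beside 2.8% of all tested genes. Their summed level was 5.13 to 7.07 CPM (counts scaled to library size and TMM factor) in d0, 171 to 267 CPM in d3F and 592 to 1084 CPM in d5FS. Cer1 alone had 388 CPM ± 132 (SD, n = 2) in d5FS. Pluripotency markers summed to 1860 CPM in replicate 1 and 7196 CPM in replicate 2 of d0, so that the ESC samples differed from each other. Dppa5a had the highest mean of these markers in d0, at 2521 CPM ± 2725, and differed 7.48-fold between the replicates. The other markers of the list differed from 1.58-fold (Pou5f1) to 5.81-fold (Esrrb). Genes without a coding transcript took between 54.3% and 76.9% of the TPM of a sample (a share of transcripts, adjusted for length and scaled to the same total in each sample). Levels are therefore compared between samples in CPM, and TPM is used only between genes of a sample. The sample list of the study names mRNA for 1 library and total RNA for the second library per population, without replicate numbers, so the part of RNA type in any difference between replicates was not tested. In these bulk samples, fewer cells of a type and less RNA per cell cannot be told apart.

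The factors differ in the helix that reads the DNA, and the coding bases of codons 44 to 55 of the 60-codon homeobox are shown for that reason. They were read from GENCODE M21 transcripts (mm10), 5′ to 3′ on the coding strand, and the capitals mark codon 50, whose residue is the main determinant of the bases preferred next to the TAAT core.
Lhx1: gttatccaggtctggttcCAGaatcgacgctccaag
Hesx1: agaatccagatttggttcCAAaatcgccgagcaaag
Hhex: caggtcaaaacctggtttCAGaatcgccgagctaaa
Gsc: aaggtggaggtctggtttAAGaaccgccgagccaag
Otx2: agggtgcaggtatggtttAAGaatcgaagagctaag
Dmbx1: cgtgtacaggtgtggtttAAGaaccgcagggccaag
Six2: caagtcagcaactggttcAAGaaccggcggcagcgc
Six3: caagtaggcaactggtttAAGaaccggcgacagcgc
Codon 50 specified glutamine in 3 factors (Lhx1, Hesx1 and Hhex) and lysine in the other 5. Over the 180 bases of the homeobox, Six2 and Six3 were the closest of the 28 pairs, with 76.7% of bases identical, and Hesx1 and Six3 were the farthest, with 30.6%. The longest stretch shared by the transcripts of any pair was 60 bases, between Six2 and Six3, shorter than the 100-base reads. The homeobox lay wholly in exon 1 of 2 in Six2 and Six3, and it was divided by at least 1 intron in the other members.

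The members lie on 6 chromosomes. In GENCODE M21 (mm10) Lhx1 occupies chr11:84518284-84525535, Gsc chr12:104471209-104473330, Hhex chr19:37434810-37440731 and Dmbx1 chr4:115915119-115939926. Otx2 (chr14:48657677-48673819) and Hesx1 (chr14:26994416-27002329) share a chromosome, and Six3 (chr17:85613608-85629302) and Six2 (chr17:85684277-85688274) are neighbours, 54974 bases apart.

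The first question was which of the factors changed when ESCs gave rise to Foxa2-positive cells at day 3. Lhx1, Gsc, Otx2 and Six2 rose from d0 to d3F, which is 4 of the 7 tested, and none fell. Lhx1 (6 and 6 counts in d0), Dmbx1 (4 and 4) and Six2 (7 and 1) passed the low-count filter only through a later population. They could hardly have been called lower from d0, so that the absence of falls says little about them. Among all tested genes 4.7% were called in this comparison, 2.8% higher and 1.9% lower. The rise was 128-fold for Lhx1, 86.0-fold for Gsc, 43.5-fold for Six2 and 7.59-fold for Otx2. Hesx1, Hhex and Dmbx1 did not pass, with fitted changes between 1.73-fold and 2.32-fold. Genes were called at an adjusted p (edgeR quasi-likelihood test, Benjamini-Hochberg) under 0.05 and a log2 fold change beyond 1 in either direction. With 1 sample left out in turn, the count of called factors was 2 without replicate 2 of d0 or without replicate 2 of d3F. When every sample had to hold at least 10 counts, Lhx1, Six2 and Dmbx1 were no longer tested and Gsc alone was called.

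The next question was what changed between the Foxa2-positive and the Foxa2- and Sox17-positive cells. No factor passed from d3F to d5FS. The samples of both populations did not overlap for 6 of the 7, nor for 52.2% of all tested genes. Dmbx1 (10.7-fold), Hesx1 (4.70-fold) and Hhex (3.58-fold) had the largest fitted increases, and Six2 was the one member with a fitted decrease. In this comparison edgeR called 1.54% of tested genes, 1.08% higher and 0.461% lower, and 5 of the 7 factors (Lhx1, Hesx1, Hhex, Six2 and Dmbx1) had an unadjusted p under 0.05, beside 18.1% of all tested genes. At these cut-offs the Wald test of DESeq2 called 3 factors, Hesx1, Hhex and Dmbx1, and 0 were called when DESeq2 tested for a change beyond 1 on the log2 scale. Without replicate 1 or without replicate 2 of d0, 1 factor, Dmbx1, passed in edgeR. With the replicate number as a block, Hesx1, Hhex and Dmbx1 passed (edgeR adjusted p = 0.0322, 0.0429 and 0.0277).

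Over the whole interval from d0 to d5FS, all 7 tested factors rose, against 22.8% of tested genes called, 12.4% higher and 10.4% lower. The fold change ranged from 8.10 for Hesx1 to 223 for Lhx1. The comparisons share their samples, so that the d0 samples enter both of those that start at d0. A factor near 0 in d0 could pass the filter on low counts only through a later population, so that the count is a description of the 7 and not of all 8. Without replicate 2 of d5FS, 4 of the 7 passed. The median log2 fold change of the 7 was 2.92 at the first step, 1.37 at the second and 4.28 over the whole interval, beside -0.0059, 0.011 and 0.017 over all tested genes.

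**Figure D1:**
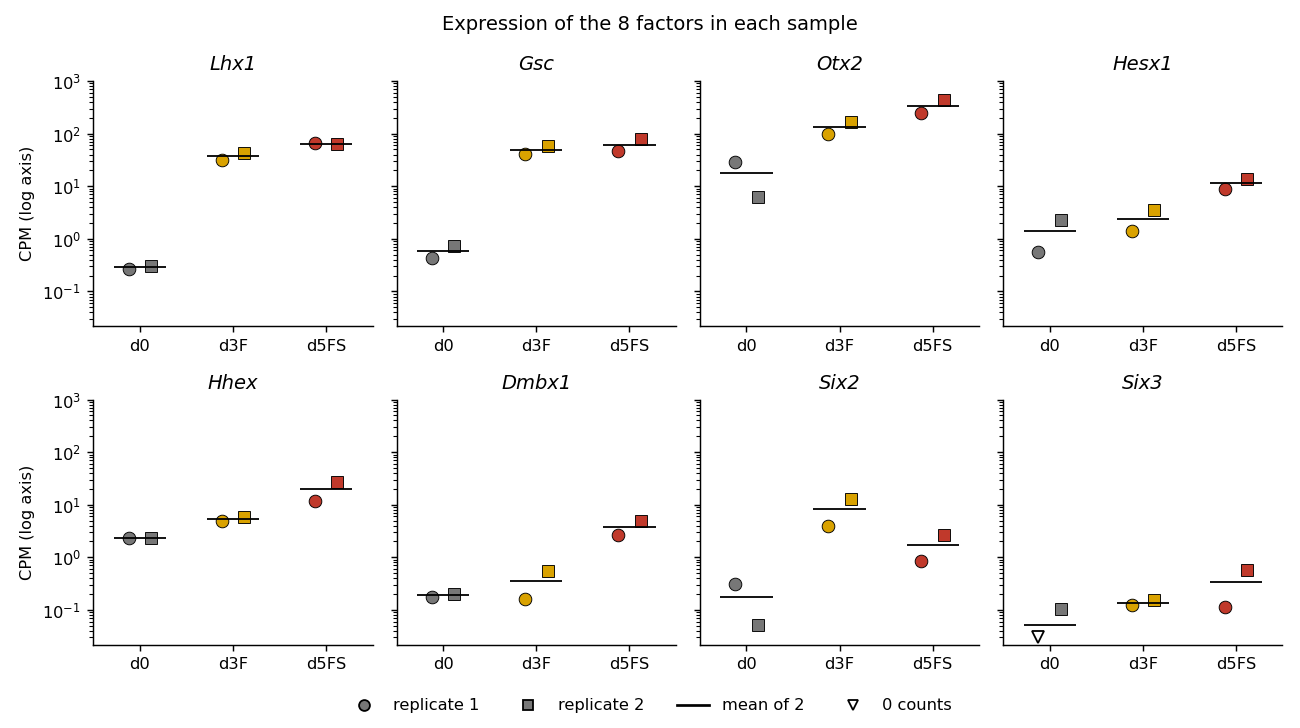
CPM of each factor (log axis) in d0, d3F and d5FS, with circles for replicate 1, squares for replicate 2 and a line at the mean of 2. Lhx1 and Gsc stood below 1 CPM in both d0 samples and above 30 CPM in every differentiated sample, Six2 was highest in d3F, and Six3 stayed under 1 CPM throughout (the open triangle marks 0 counts).

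**Figure D2:**
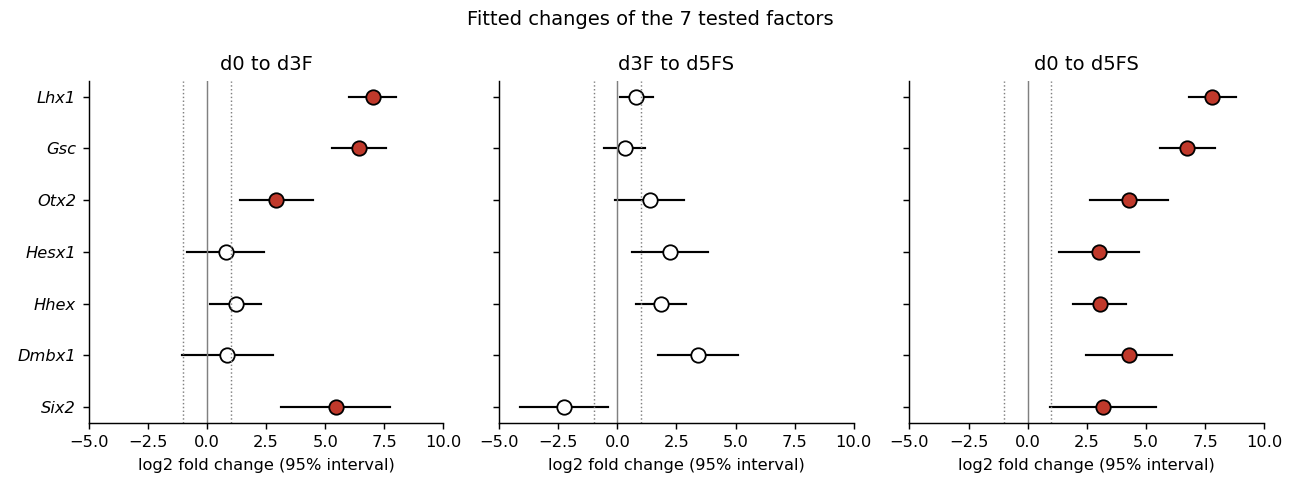
Fitted log2 fold change of the 7 tested factors with 95% intervals for the 3 comparisons. Filled points were called, the solid line marks no change and the dotted lines mark a log2 fold change of 1 in either direction. The 4 filled points from d0 to d3F become 7 from d0 to d5FS, with none from d3F to d5FS.

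Lhx1, the LIM homeodomain organizer factor, was close to the detection limit in ESCs and present in both sorted populations of differentiating cells. It measured 0.263 and 0.308 CPM in d0 (6 counts in each), 31.1 and 43.6 CPM in d3F, and 66.1 and 63.6 CPM in d5FS. The populations did not overlap at any step, and the lowest d3F sample exceeded the highest d0 sample 101-fold. The log2 fold change was 7.01 (SE 0.43, edgeR adjusted p = 0.00178) from d0 to d3F, and no other tested gene had a smaller p in that comparison. At the second step, to d5FS, the fitted change was 0.80, with a 95% interval from 0.10 to 1.49 and an edgeR adjusted p of 0.219. From d0 to d5FS the log2 fold change was 7.80 (SE 0.44, edgeR adjusted p = 0.000724), again the smallest p of all tested genes. Both calls held in each of the 6 fits that left out a sample.

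Next to Lhx1, on the opposite strand, lies the long non-coding gene Lhx1os at chr11:84525660-84535831. The annotated starts of the pair are 124 bases apart and the genes share no exonic base. Lhx1os had 0 counts in both d0 samples, 28 and 66 counts in d3F, and 137 and 173 counts in d5FS. It was therefore listed only in the differentiated samples, in the same order of populations as Lhx1. Its mean of 2.24 CPM ± 1.55 (SD, n = 2) in d3F was at least 15.7-fold higher than in d0, taking 3 counts per library as the floor. Its mean of 8.84 CPM ± 1.52 (SD, n = 2) in d5FS was at least 62.0-fold higher than in d0. Lhx1os was called from d0 to d3F (edgeR adjusted p = 0.0155) and from d0 to d5FS (edgeR adjusted p = 0.00294). The bases between both starts are shown because the members of the pair changed together. They were taken from RefSeq (GRCm38.p6, chr11:84525536-84525659, minus strand), and the capitals mark the one match to the motifs searched, a CCAAT box on the reverse strand.
Lhx1os to Lhx1: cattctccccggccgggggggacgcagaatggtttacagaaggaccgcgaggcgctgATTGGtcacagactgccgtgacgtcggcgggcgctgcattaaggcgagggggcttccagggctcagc
The stretch had 66.1% G and C. The motifs searched on both strands were TAATCC, bound by some but not all lysine-50 homeodomains, TAATTA, bound by many glutamine-50 homeodomains and identical on both strands, TGTTTAC, a forkhead site, and CCAAT. The first 2 share the letters TAAT. In windows of 300 bases around annotated starts, available as 11 windows for the 8 members, TAATCC was found in 1 window and TAATTA in 2, all of Otx2. TGTTTAC was found in 0 member windows and CCAAT in 6. Among all 32851 promoter windows the shares were 7.06%, 5.29%, 3.65% and 37.4% in the same order. A match is a run of letters and not a measured binding site.

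Gsc, the goosecoid repressor of the anterior streak, followed the same course as Lhx1 up to day 3. It measured 0.439 and 0.718 CPM in d0, 40.7 and 58.8 CPM in d3F, and 45.8 and 77.7 CPM in d5FS. The d0 samples stood far below the rest, whereas d3F and d5FS overlapped. The log2 fold change was 6.43 (SE 0.50, edgeR adjusted p = 0.0024) from d0 to d3F and 6.74 (SE 0.51, edgeR adjusted p = 0.000929) from d0 to d5FS. Between d3F and d5FS it was 0.31, with a 95% interval from -0.55 to 1.17, and it was -0.12 without replicate 2 of d5FS. Both calls against d0 were kept in every fit that left out a sample.

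Otx2, which patterns the anterior embryo and is also active in the transition from naive to primed pluripotency, had the highest TPM of the members in both ESC samples. It measured 28.6 CPM in replicate 1 and 6.30 CPM in replicate 2 of d0, 99.4 and 166 CPM in d3F, and 250 and 434 CPM in d5FS. The populations did not overlap, but the d0 samples differed 4.54-fold, more than 97.5% of tested genes between these replicates on the log2 scale. In replicate 1 of d0, where Otx2 was higher, the summed pluripotency markers were lower (1860 against 7196 CPM). The summed primed epiblast markers were higher there (1003 against 598 CPM). The highest d0 means of these lists were those of Dppa5a (2521 CPM ± 2725, SD, n = 2) and Dnmt3b (721 CPM ± 220). The part of these markers in the Otx2 difference was not tested. The log2 fold change from d0 to d3F was 2.92 (SE 0.67, edgeR adjusted p = 0.0491). This call was lost in 5 of the 6 fits that left out a sample, where the log2 fold change ranged from 2.23 to 4.40 and the highest edgeR adjusted p was 0.217. It was kept without replicate 1 of d0, and it was lost with the replicate number as a block (edgeR adjusted p = 0.0505), with glmTreat and with DESeq2 tested beyond a log2 change of 1. The rise from d0 to d5FS, with a log2 fold change of 4.29 (SE 0.72, edgeR adjusted p = 0.00629), was kept in all 6. Between d3F and d5FS the fitted change was 1.37 (edgeR adjusted p = 0.302).

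The non-coding gene Otx2os1 overlaps Otx2 on the opposite strand over 5112 bases, with 154 exonic bases in common. It had 0 counts in both d0 samples, 3 and 2 counts in d3F, and 11 and 12 counts in d5FS. These counts were small beside the 2449 to 7580 counts of Otx2 in the differentiated samples. Otx2os1 was called from d0 to d5FS (edgeR adjusted p = 0.0131), where its mean of 0.656 CPM ± 0.045 (SD, n = 2) was at least 4.60-fold higher than a floor of 3 counts per library. The library kit does not mark strand, so that reads of the shared exonic bases cannot be told apart.

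Hesx1, a repressor needed for the forebrain and pituitary, was called only over the whole interval. It measured 0.570 and 2.26 CPM in d0, 1.38 and 3.49 CPM in d3F, and 8.96 and 13.8 CPM in d5FS. The d0 and d3F samples overlapped, and both d5FS samples were above all others. Between d0 and d5FS the log2 fold change was 3.02 (SE 0.74, edgeR adjusted p = 0.0229), and the call was lost without either d5FS replicate, at edgeR adjusted p values of 0.0672 and 0.0927. From d0 to d3F it was 0.79 (edgeR adjusted p = 0.613), and it was -0.0088 without replicate 2 of d3F. The second step gave 2.23 (edgeR adjusted p = 0.152).

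Hhex, a repressor of the anterior endoderm and of the liver and thyroid buds, was present at a low level in ESCs and was higher in each later population. It measured 2.32 and 2.36 CPM in d0, 4.91 and 5.96 CPM in d3F, and 11.9 and 27.1 CPM in d5FS. The populations did not overlap at either step, and replicates differed most in d5FS (2.27-fold). Only the whole interval was called, with a log2 fold change of 3.05 (SE 0.49, edgeR adjusted p = 0.00543) that was kept in every fit that left out a sample. The first step gave 1.21 (edgeR adjusted p = 0.187). The second gave 1.84 (edgeR adjusted p = 0.0924).

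Dmbx1, the paired-like factor of the brain, was close to the detection limit until day 3. It measured 0.175 and 0.205 CPM in d0, 0.162 and 0.556 CPM in d3F, and 2.61 and 4.99 CPM in d5FS. The d0 and d3F samples overlapped, and these values rest on 4 to 11 counts each, against 46 and 87 counts in d5FS. Between d0 and d5FS the log2 fold change was 4.28 (SE 0.79, edgeR adjusted p = 0.00913). Without replicate 2 of d5FS it was 3.75 (edgeR adjusted p = 0.0541). The second step gave 3.41 (edgeR adjusted p = 0.0664), and from d0 to d3F it was 0.87, turning to -0.20 without replicate 2 of d3F.

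Six2, a sine oculis factor known for nephron progenitors and for cranial mesenchyme, had its highest level in d3F, unlike the other tested members. It measured 0.307 and 0.0513 CPM in d0 (7 counts and 1 count), 3.94 and 12.7 CPM in d3F, and 0.851 and 2.64 CPM in d5FS. No populations overlapped, and the replicates differed more than 3-fold in each population. The log2 fold change from d0 to d3F was 5.44 (SE 1.00, edgeR adjusted p = 0.0246), and the call was lost without replicate 2 of d0 (4.74, edgeR adjusted p = 0.0754) or without replicate 2 of d3F (4.38, edgeR adjusted p = 0.132). From d0 to d5FS it was 3.19 (SE 0.98, edgeR adjusted p = 0.0485), a call lost in 4 of the 6 fits that left out a sample. The second step gave -2.25, with a 95% interval from -4.12 to -0.38 (edgeR adjusted p = 0.201). Fibroblast markers (Col1a1, Col1a2, Thy1, Postn, Dcn and Lum) summed to 7.72 to 12.3 CPM in d0, 27.5 to 71.4 CPM in d3F and 173 to 178 CPM in d5FS. Most of the sum in d5FS was Col1a2, at 110 and 156 CPM, whereas Thy1 was at 0.740 CPM ± 0.40 (SD, n = 2) and Lum at 0. Of 7 mesendoderm markers, 3 fell from d3F to d5FS (T, Mixl1 and Mesp1), beside 0.461% of all tested genes. The other 4 (Eomes, Foxa2, Gsc and Tbx6) were not called at that step, and Gsc and Tbx6 had their highest means in d5FS. T, Mesp1, Mixl1, Eomes and Foxa2 had their highest means in d3F, as Six2 did. The d3F and d5FS samples overlapped for Eomes (means of 125 and 118 CPM) and Foxa2 (59.5 and 48.0 CPM). T measured 12.5 CPM ± 10.4 in d0, 119 CPM ± 70.7 in d3F and 5.89 CPM ± 3.71 in d5FS, and Mesp1 0.143 CPM ± 0.016, 2.25 CPM ± 1.46 and 0.0284 CPM ± 0.040. The part of fibroblasts or mesendoderm cells in the Six2 levels was not tested.

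Six3, the forebrain and eye factor of this family, could not be tested. It had 0 and 2 counts in d0, 3 and 3 counts in d3F, and 2 and 10 counts in d5FS, or at most 0.573 CPM. The summed counts of 2, 6 and 12 carry exact Poisson 95% intervals of 0.24 to 7.22, 2.20 to 13.1 and 6.20 to 21.0, which cover counting error only. A change was not detectable at this depth. Fitted without the filter on low counts, the change between d0 and d5FS was 2.66 on the log2 scale (SE 1.71, edgeR adjusted p = 0.314). Six3os1, a non-coding gene that overlaps Six3 on the opposite strand with 106 exonic bases in common, had 1 and 2 counts in d0, 7 and 14 counts in d3F, and 5 and 26 counts in d5FS. Between d0 and d5FS its log2 fold change was 3.52 (edgeR adjusted p = 0.0536), and no comparison was called with the filter. Without the filter the same step was called, at 3.51 (edgeR adjusted p = 0.0137).

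Within a sample, TPM allows the members to be ranked per length. Otx2 held rank 1 in all 6 samples. Gsc held rank 2 and Lhx1 rank 3 in all 4 differentiated samples, and Six3 was last in them. In d3F, Otx2 made up 44.4% and 46.9% of the summed TPM of the members, Gsc 38.3% and 34.8%, and Lhx1 11.1% and 9.88%. In d5FS, the share of Otx2 was 57.2% and 60.3%, that of Gsc 22.1% and 22.7%, and that of Lhx1 12.2% and 7.11%. The shares of Otx2 and Gsc thus did not overlap between d3F and d5FS, while that of Lhx1 did. In d0 the Otx2 share was 83.1% in replicate 1 and 38.6% in replicate 2. Hesx1 held rank 3 in replicate 1 of d0, at 3.59%, and rank 2 in replicate 2, at 30.1%. Among genes with a coding transcript, Otx2 stood at percentiles 97.2 and 98.0 of TPM in d5FS, and Six3 at percentiles 26.6 and 34.6.

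**Figure D3:**
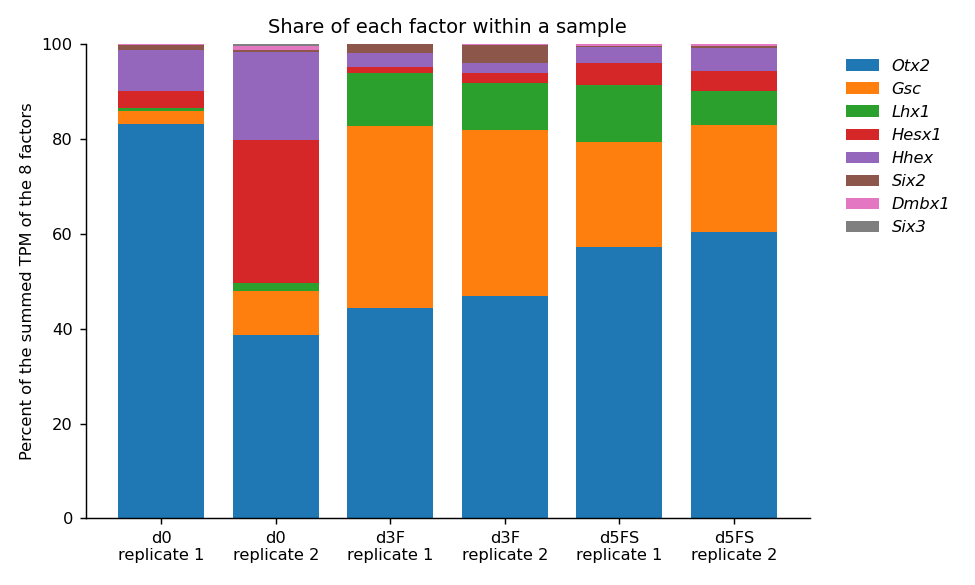
Share of each factor in the summed TPM of the 8 factors, for each of the 6 samples. Otx2, Gsc and Lhx1 fill most of every differentiated sample, and the d0 samples differ, with Otx2 at 83.1% in replicate 1 and 38.6% in replicate 2.

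To place the members among other genes, the distance between centred log2 CPM profiles over the 6 samples was computed for every pair of a member and a tested gene. Gsc was the gene nearest to Lhx1 of 14538, at a distance of 1.12 log2 units, followed by the forkhead factor Foxq1 (1.16) and the calpain-family gene Capn6 (1.49). Nearest to Gsc were Foxq1 (0.73), the endoderm factor Gata6 (1.09) and Lhx1. Nearest to Otx2 was Shisa2 (0.78), an antagonist of Wnt and Fgf signalling, followed by the keratin Krt19 (0.99) and the sialomucin Podxl (1.02). Nearest to Hesx1 were Akr1c13, Cilp and Vwa7 (0.60 to 0.74), and nearest to Hhex were A4galt, Mpp2 and the retinoid receptor Rxra (0.41 to 0.51). Akr1c13, Cilp and Vwa7 were low, with at most 2.98, 1.43 and 2.41 CPM in any sample, so that their distances rest on few counts. The profile of Six2, highest in d3F, was closest to the receptor gene Gfra2 (1.11), the collagen gene Col14a1 (1.12) and Samd5 (1.31). Dmbx1 was closest to Proc, which encodes protein C (0.68), to Fga, which encodes a fibrinogen chain (0.78), and to the angiopoietin gene Angpt2 (0.79). Fga was also low, with at most 1.09 CPM in any sample and 0 in both d0 samples. Lhx1 and Gsc were each among the 3 genes nearest to the other. For the rest, many genes lay nearer than any other member: 572 for Hhex, 407 for Otx2, 364 for Six2, 102 for Hesx1 and 77 for Dmbx1. These distances rest on 6 samples of 3 populations, share their libraries, and are a description.

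The genes that act with the factors were examined as lists. From d0 to d3F, 2.8% of all tested genes rose and 1.9% fell. Of 18 organizer and anterior endoderm genes without a homeobox, 11 rose and none fell at this step. They included Cer1, a secreted antagonist of Nodal, Bmp and Wnt (log2 fold change 5.81), the Bmp antagonists Chrd (5.35) and Nog (3.77), the Wnt antagonists Dkk1 (4.65) and Frzb (5.04), the signal Fgf8 (6.29) and the factor Foxa2 (8.42), whose reporter defines the gate. Foxa2 had 1 and 6 counts in d0 and passed the low-count filter only through a later population, so that it could hardly have fallen. At the second step 2 rose, Cer1 (2.75) and the Wnt receptor Fzd5 (2.85), and 2 fell, Chrd (-2.54) and the Nodal co-receptor Tdgf1 (-2.79). Among all tested genes, 1.08% rose and 0.461% fell at the second step. From d0 to d5FS 13 of the 18 rose and 1 fell, beside 12.4% and 10.4% of all tested genes. The median log2 fold change of the 18 was 3.77 at the first step, -0.22 at the second and 3.87 over the whole interval. Chrd, at 0.871 CPM ± 0.071 (SD, n = 2) in d0, 35.9 CPM ± 19.1 in d3F and 6.18 CPM ± 1.37 in d5FS, was highest in d3F as Six2 was. Cer1, at 1.01 CPM ± 0.56, 57.7 CPM ± 8.44 and 388 CPM ± 132, was highest in d5FS.

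Of 56 related homeobox genes (other LIM, paired-like, sine oculis and NK-type genes), 25 passed the filter on low counts. From d0 to d3F 5 rose and 1, Nkx6-2, fell, beside 2.8% and 1.9% of all tested genes. Those that rose included Pitx1 (4.97), the mesendoderm factor Mixl1 (4.89), Alx1 (2.91) and the notochord factor Noto (5.31). At the second step none rose and 2 fell, Mixl1 (-2.62) and Noto (-5.06), beside 1.08% and 0.461% of all tested genes. From d0 to d5FS 10 of the 25 rose and 1 fell, beside 12.4% and 10.4% of all tested genes. Among the 10, Crx and Tlx1 had 0 counts in both d0 samples and Pitx1 had 2 in each. These genes passed the filter only through a later population and could not have been called lower from d0. The counts from d0 are therefore a description of the genes tested and not of the whole list. The closest relatives of 3 members were at or near the detection limit: Otx1 had at most 7 counts, Lhx5 at most 11 and Six6 at most 9 in any sample. Another sine oculis gene, Six4, had 38.4 CPM ± 3.62 (SD, n = 2) in d0, 21.2 CPM ± 3.45 in d3F and 20.2 CPM ± 5.98 in d5FS, and was not called.

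Of the 17 cofactors and corepressors in the tables, all were tested. The LIM cofactor Ldb2 rose from d0 to d3F (4.46), from 0.146 CPM ± 0.083 (SD, n = 2) to 3.29 CPM ± 0.63, and its mean in d5FS was 0.542 CPM ± 0.12. Ldb1, the other LIM cofactor, was not called in any comparison, with log2 fold changes of -0.17, -0.12 and -0.29. The sine oculis cofactor Eya2 rose from d3F to d5FS (3.75), from 1.80 CPM ± 0.53 to 24.1 CPM ± 9.61. From d0 to d5FS, Eya2 (5.56), Eya4 (4.60) and the Groucho corepressor Tle2 (4.91) rose, and Tle4 fell (-2.87). The medians of the list were 0.13, -0.12 and 0.30 in the order of the comparisons above, and its share called was 5.88%, 5.88% and 23.5%, beside 4.7%, 1.54% and 22.8% of all tested genes.

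**Figure D4:**
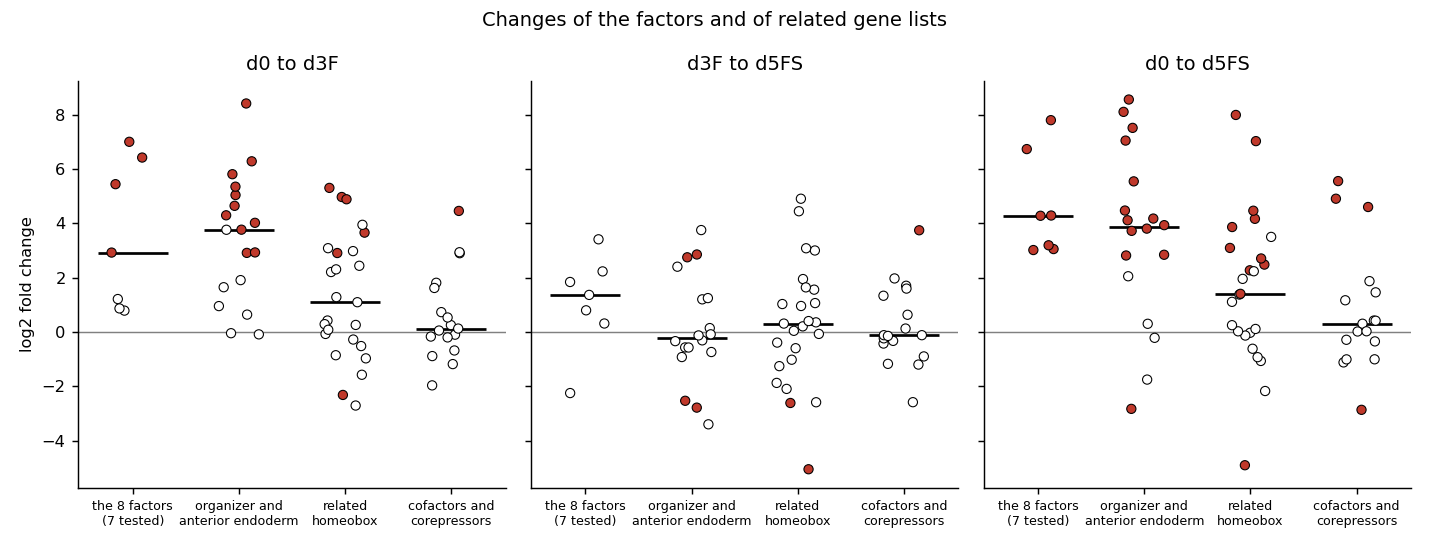
Fitted log2 fold change of each tested gene in 4 lists (the factors, organizer and anterior endoderm genes without a homeobox, related homeobox genes, and cofactors with corepressors) for the 3 comparisons. Filled points were called and lines mark list medians. The organizer list has 11 filled points above 0 from d0 to d3F, and the cofactor medians stay between -0.12 and 0.30.

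Markers of other cell types that use these factors were measured in the same samples. Anterior neural markers (among them Sox1, Pax6, Emx2, En2, Nes, Tubb3, Rax and Six6), which mark the tissue where Otx2, Hesx1 and Six3 are also active, summed to 130 to 274 CPM in d0, 162 to 238 CPM in d3F and 61.0 to 110 CPM in d5FS. Of the 6 tested, En2 and Tubb3 fell and Rax rose from d0 to d5FS, beside 10.4% and 12.4% of all tested genes. Most of the sum came from Nes, at 109 CPM ± 129 (SD, n = 2) in d0, 188 CPM ± 49.5 in d3F and 77.9 CPM ± 41.6 in d5FS. The eye-field gene Rax was highest in d5FS, at 3.61 CPM ± 3.98. The part of neural cells in the results was not tested. Visceral and extraembryonic endoderm markers (Sox7, Rhox5, Amn, Cubn, Ttr, Afp, Hnf4a and Apoa4) summed to 29.1 to 78.8 CPM in d0, 17.0 to 18.6 CPM in d3F and 93.3 to 161 CPM in d5FS. None of these 8 was called from d0 to d3F, beside 4.7% of all tested genes. From d3F to d5FS 4 rose (Cubn, Afp, Hnf4a and Apoa4), beside 1.08% of all tested genes. From d0 to d5FS 5 rose, beside 12.4%. The summed markers were highest in d5FS, as was the mean of every tested member except Six2. Rhox5 was instead highest in d0, at 50.3 CPM ± 35.2 (SD, n = 2), against 29.0 CPM ± 10.3 in d5FS. The part of visceral or extraembryonic cells in these results was not tested.

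The replicates of the members differed in a common direction in d3F and d5FS but not in d0. All 7 tested factors in d3F, and 6 of 7 in d5FS, were higher in replicate 2 than in replicate 1, the exception being Lhx1. In d0 5 of 7 were higher in replicate 2, among them Lhx1 and Dmbx1 with equal counts in both replicates. On the log2 scale, Otx2 (-2.17) and Six2 (-1.44) were lower in replicate 2 of d0 and Hesx1 was higher (1.82). The share of all tested genes higher in replicate 2 was not computed, so this direction cannot be read as particular to the factors. The difference between replicates exceeded that of 90% of tested genes for Otx2, Hesx1 and Six2 in d0, for Hesx1, Six2 and Dmbx1 in d3F, and for Six2 in d5FS. With 2 samples against 2 an exact permutation test cannot go below p = 0.33, so that each call rests on the spread estimated across genes in edgeR. The fitted changes of Lhx1 moved by less than 0.5 on the log2 scale with a sample left out, and those of Six2 from d0 ranged from 4.38 to 7.18 at day 3 and from 2.18 to 4.91 at day 5.

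**Figure D5:**
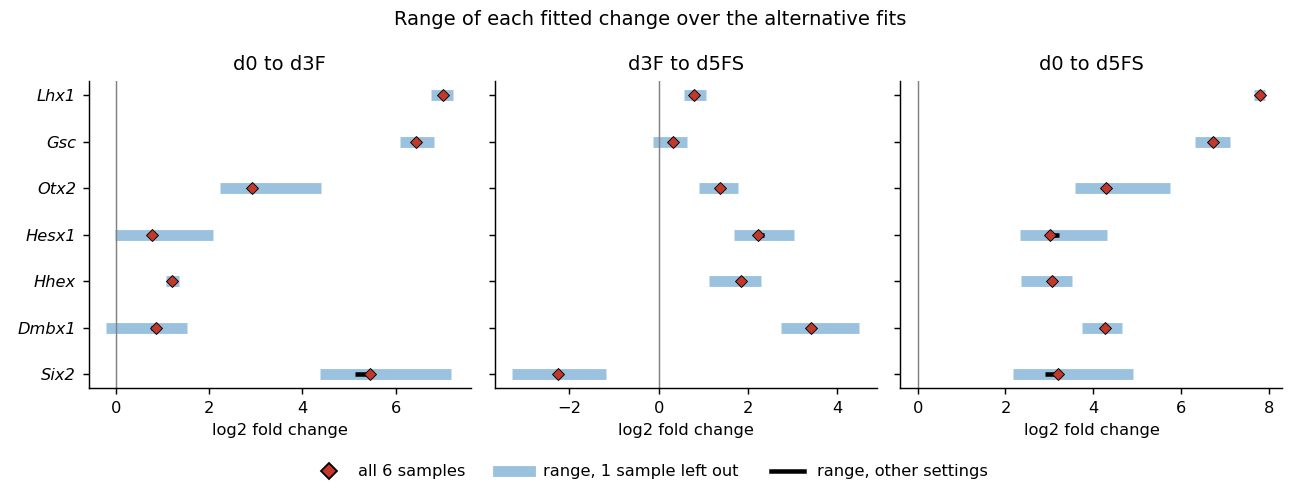
Fitted log2 fold change of the 7 tested factors with all 6 samples (diamonds), its range over the 6 fits that left out a sample (wide bars) and its range over the other settings (narrow bars). Otx2 from d0 to d3F ranged from 2.23 to 4.40 with a sample left out, whereas Lhx1 from d0 to d3F ranged from 6.75 to 7.24.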

How the data were processed

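Sorted d0, d3F and d5FS populations were profiled by RNA-seq, with 2 replicates each. The study's methods describe ribosomal RNA depletion for all of them, whereas its sample list names mRNA for 1 library per population. According to the study's methods, STAR aligned 100-base paired reads to mm10 and RSEM quantified RefSeq genes, and their versions are not given in the sources used here. The authors deposited, per sample, expected counts (RSEM estimates, not normalized) and TPM (scaled per length to 1 total), each for 24054 genes. The FPKM values were not used. The deposited effective lengths, another column, served only to rescale TPM by TMM factors.

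Expected counts were rounded to whole numbers. Genes were filtered with filterByExpr (14539 kept) and normalized by TMM (factors 0.877 to 1.08). The edgeR 4.0.16 quasi-likelihood test (R 4.3.3, limma 3.58.1) was fitted to all 6 samples with a mean per population, leaving 3 residual degrees of freedom, and p was adjusted by Benjamini-Hochberg over all tested genes. Standard errors were obtained from the log2 fold change (prior count 0.125) and its F statistic. Distances used log2 CPM with a prior count of 2. CPM was computed from the expected counts and TMM library sizes. The floor of detection was taken as 3 counts per library.

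All 8 factors were named in each comparison, with the 3 genes nearest to each tested factor and called or defining genes of fixed lists. Members, lists and markers were chosen with earlier results of these data known. Some genes of these lists are not reported by name here. The alternatives (DESeq2 1.42.0, other normalizations and filters, a replicate block, and leaving out each sample) are given in the closing section. The fits were tested on simulated data. Homeobox bases were read from GENCODE M21 transcripts and the 60 codons placed by the tryptophan and asparagine of the third helix. Promoter windows came from RefSeq (GRCm38.p6), and figures were drawn with matplotlib in Python. Replicates differed far beyond sampling noise, with 61.7 to 145 chi-square per degree of freedom, and were all kept.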

Additional observations from a re-analysis of the deposited data

How the results depend on the processing

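Of the 21 log2 fold changes of the factors, 3 changed sign, each near 0 and uncalled and each with 1 sample left out: Hesx1 (-0.0088) and Dmbx1 (-0.20) from d0 to d3F without replicate 2 of d3F, and Gsc (-0.12) from d3F to d5FS without replicate 2 of d5FS. With the other samples left out these ranged up to 2.08, 1.53 and 0.63. DESeq2 size factors and TMM factors from genes with a coding transcript changed none of the 21 calls. From d0 to d3F, 4 factors and 683 genes were called. Without a low-count filter 1933 genes were called, with at least 10 counts in every sample 357 genes and 1 factor (Lhx1, Six2 and Dmbx1 were then not tested), with the DESeq2 Wald test 1516 genes, against a log2 fold change of 1 in DESeq2 384, with glmTreat 242 and with only the populations compared 430. Otx2 was the factor lost in the last 3 of these (adjusted p = 0.0594 in DESeq2, and 0.128 and 0.0695 in edgeR). With 1 sample left out, 97 to 977 genes and 2 to 4 factors were called. From d3F to d5FS, 0 factors and 224 genes were called. Without a filter 1423 genes and 5 factors were called, with at least 10 counts 144 genes, with the Wald test 1104 genes and 3 factors, with glmTreat 70 genes, and with only the populations compared 529 genes and 1 factor. With 1 sample left out, 0 to 496 genes and 0 to 1 factors were called, with 0 genes without replicate 1 of d3F. From d0 to d5FS, 7 factors and 3313 genes were called. With at least 10 counts 4 factors were called, against a log2 fold change of 1 in DESeq2 1035 genes and 5 factors, and with glmTreat 1235 genes and 5 factors. Hesx1 (adjusted p = 0.0647 in DESeq2 and 0.0642 in edgeR glmTreat) and Six2 (0.19 and 0.124) were the factors lost. With 1 sample left out, 1047 to 3037 genes and 4 to 7 factors were called. The cause of these differences was not tested. A population left with 1 sample is assumed to vary like the others.

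Replicate numbers are shared by the labels, but nothing ties them to a shared day or batch. Differences between replicates correlated across genes by 0.314 (d0 and d3F), 0.324 (d0 and d5FS) and 0.278 (d3F and d5FS). In the replicate block fit, 1320 genes passed from d0 to d3F, 918 genes and 3 factors (Hesx1, Hhex and Dmbx1) from d3F to d5FS, and 4296 genes with all 7 factors from d0 to d5FS. From d0 to d3F 3 factors remained, without Otx2 (edgeR adjusted p = 0.0505).

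Of the 24 mean TPM values (8 factors in 3 populations), 15 stayed within 1 SD of 2 replicates when rescaled by TMM factors and 0 when rescaled to genes with a coding transcript. The second rescaling divides by the share of TPM on genes with a coding transcript. It therefore raises every mean, while the SD was left unscaled, so that the 0 follows from the change of scale and says nothing of how stable the levels are. By Pearson correlation in place of distance, the nearest gene was the same for 0 of 7 factors, so that the genes named as nearest depend on the measure.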
